A study of Mus musculus with 6 samples.

Results

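The genes described here are 33 listed interferon-stimulated and antiviral genes, read from Affymetrix arrays of immortal mouse melanocytes. Each gene was taken from a probe set annotated with exactly 1 gene symbol, and from the probe set with the highest mean over all 6 arrays where a gene had several. This gave a value for 30 of the 33 genes, out of 22180 genes measured in the same way. Oas1a and Gbp2 share their probe sets with another symbol, and Ifi44 had no probe set listed with its symbol, so these 3 were not analysed here. The tested line carried a LacZ insertion in 1 copy of Sox10 (Sox10LacZ/+; Ink4a-Arf null) and was made from mice 3 days old. Its comparator, melan-Ink4a-Arf-1 (melan-a), was wild type for Sox10 and came from mice labelled Cdkn2a tm1RDp/tm1RDp. Both lines therefore lacked Ink4a-Arf, both came from mice crossed repeatedly to C57BL/6J, and both grew in 10% serum with 200 nM of the phorbol ester TPA and 200 pM of cholera toxin. There were 3 arrays per line. Each genotype was a single cell line, so genotype and line cannot be told apart, and the labels do not say whether the replicates were separate cultures. The p-values below then measure only the spread between these arrays, which may be technical.

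Interferons are secreted proteins that cells make when sensors detect foreign nucleic acid. Type I interferons bind the receptor pair Ifnar1 and Ifnar2, whose kinases phosphorylate STAT proteins such as Stat2, which joins Irf9 in the factor ISGF3. ISGF3 enters the nucleus and binds interferon-stimulated response elements in front of genes that block viral entry, translation, replication and release. Melanocytes, the pigment cells of skin and hair, respond to interferons, and the culture protocol of these lines names no added interferon or virus.

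The values are log2 signals after RMA, in which a difference of 1 is a 2-fold change. Signals of different probe sets cannot be ranked against each other as transcript levels, and a gene is called dim here where its mean in a line was under 5.20, the value that 40% of probe sets fell below. Array medians lay between 5.72 and 5.78. Differences are Sox10LacZ/+ minus wild type, fitted with limma across all genes and given with their standard error (SE), and ± after a mean is the SD over the 3 arrays of a line. To pass, a gene needed a p, adjusted by Benjamini and Hochberg over all 22180 genes, below 0.05. Sox10 had a mean signal of 9.73 ± 0.05 in the Sox10LacZ/+ line and 9.91 ± 0.10 in wild type, which differ by −0.18 (SE 0.08, limma adjusted p 0.213). Cdkn2a read 7.07 ± 0.08 and 7.16 ± 0.12 in the Sox10LacZ/+ and wild-type lines. The sources used here do not give which part of either gene is probed, so neither value checks the labels.

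The sequences in front of several of these genes hold core letters of the element through which ISGF3 and related factors act. Promoter windows running from 250 bases before to 50 bases after the annotated start were taken from RefSeq on build GRCm38.p6 and matched 25 of the 33 genes. The core searched was GAAANNGAA on either strand, with overlapping matches allowed. It was found in 16 of the 25 matched genes (64%), against 9.76% of the 27025 genes with such a window. The letters of a gamma-activated site, TTCNNNGAA, whose matches may overlap those of the core, were found in 7 of the 25 (28%), against 9.55% of all genes. A match is a run of letters and not a shown binding site. The stretches below are each 80 bases, printed 5′ to 3′ along the gene's own strand. They belong to 4 genes that passed the test between the lines and to 3 induced genes that did not. Ifih1 and Rtp4 also passed but are not printed. The window of Ifih1 held 2 matches of the core, and Rtp4 had no matched window. Capitals mark the core, on the printed strand or as its reverse complement. The first 4 are from genes that passed, namely Apobec3 (chr15:79892233-79892312, plus strand), Bst2 (chr8:71537553-71537632, minus strand), Rsad2 (chr12:26456528-26456607, minus strand) and Oasl2 (chr5:114896854-114896933, plus strand), whose window held no core.
Apobec3: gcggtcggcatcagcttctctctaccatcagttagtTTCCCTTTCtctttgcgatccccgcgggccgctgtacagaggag
Bst2: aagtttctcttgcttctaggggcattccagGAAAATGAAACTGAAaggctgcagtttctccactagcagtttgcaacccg
Rsad2: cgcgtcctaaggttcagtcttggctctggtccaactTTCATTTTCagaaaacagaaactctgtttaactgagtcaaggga
Oasl2: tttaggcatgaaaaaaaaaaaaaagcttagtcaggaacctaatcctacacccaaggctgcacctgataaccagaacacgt
The other 3 are from Isg15 (chr4:156200841-156200920, minus strand), Ifit1 (chr19:34640769-34640848, plus strand) and Gbp3 (chr3:142559964-142560043, plus strand), which did not pass.
Isg15: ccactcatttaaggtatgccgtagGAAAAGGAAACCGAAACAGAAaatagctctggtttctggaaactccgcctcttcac
Ifit1: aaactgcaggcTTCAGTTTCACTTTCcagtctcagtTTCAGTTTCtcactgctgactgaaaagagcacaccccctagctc
Gbp3: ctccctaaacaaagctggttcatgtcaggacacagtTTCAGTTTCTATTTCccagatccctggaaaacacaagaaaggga
Isg15 and Ifit1 each held 3 matches in these stretches, Gbp3 and Bst2 held 2, and Apobec3 and Rsad2 held 1.

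Between the lines, a few antiviral genes differed clearly and most of the list did not pass. The retroviral restriction factor Apobec3 was 6.81-fold higher in the Sox10LacZ/+ line, and Oasl2, Rtp4 and Bst2 were between 1.89-fold and 2.28-fold higher. Apobec3 and Oasl2 were dim in wild type, so their folds are not exact. The RNA sensor Ifih1 was slightly higher and the antiviral enzyme Rsad2 slightly lower. Isg15, Usp18, Irf7 and the 3 measured IFIT genes were among those that did not pass.

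In counts, 6 of the 30 measured genes passed (20.0%), against 13.4% of all genes tested. Of these, 5 were higher in the Sox10LacZ/+ line, where 7.46% of all genes were higher, and 1 was lower, where 5.92% of all genes were lower. The median difference over the 30 genes was −0.02, against 0.001 over all genes, and 15 differences were positive and 15 negative. No overlap between the arrays of the lines was seen for 10 of the 30 genes, 6 of them higher and 4 lower in the Sox10LacZ/+ line, or 33.3% against 31.6% of all genes. Of the 30 genes, 3 passed and were past 2-fold (Apobec3, Oasl2 and Rtp4), as were 3.53% of all genes. The 24 genes that did not pass had differences from −0.38 to 0.47 and adjusted p from 0.0669 to 0.973. For each of these 24 the 95% confidence interval lay within a 2-fold change either way, the widest bounds being −0.835 and 0.796. Some fibroblast markers moved with the lines: 4 of 15 were higher in the Sox10LacZ/+ line (Dcn by 5.92, Pdgfrb by 4.08, Fbln1 by 3.18 and Col1a2 by 1.24), with array means of the list of 7.53 there on each array and from 6.45 to 6.56 in wild type, while Lum, Fap and Twist2 were dim on every array. The other 11 did not pass, 5 of the 15 differences were negative, and the median of the list was 0.15. Leukocyte markers gave array means from 5.43 to 5.47 in the Sox10LacZ/+ line and from 5.40 to 5.45 in wild type, with Cd68 (1.32) and Fcer1g (0.36) higher among 14 and with Ptprc, Adgre1 and Cd14 dim on every array. Fcer1g no longer passed, with adjusted p up to 0.143, on removing wild-type replicate 1 or a Sox10LacZ/+ array. All 10 melanocyte markers were bright in both lines, of which Mitf (0.67) and Kit (2.29) were higher and Tyr (−2.10) and Dct (−0.68) lower in the Sox10LacZ/+ line. In such bulk RNA, fewer cells of a type and less RNA per cell cannot be told apart, and the part of these marker changes in the results below was not tested.

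**Figure D1:**
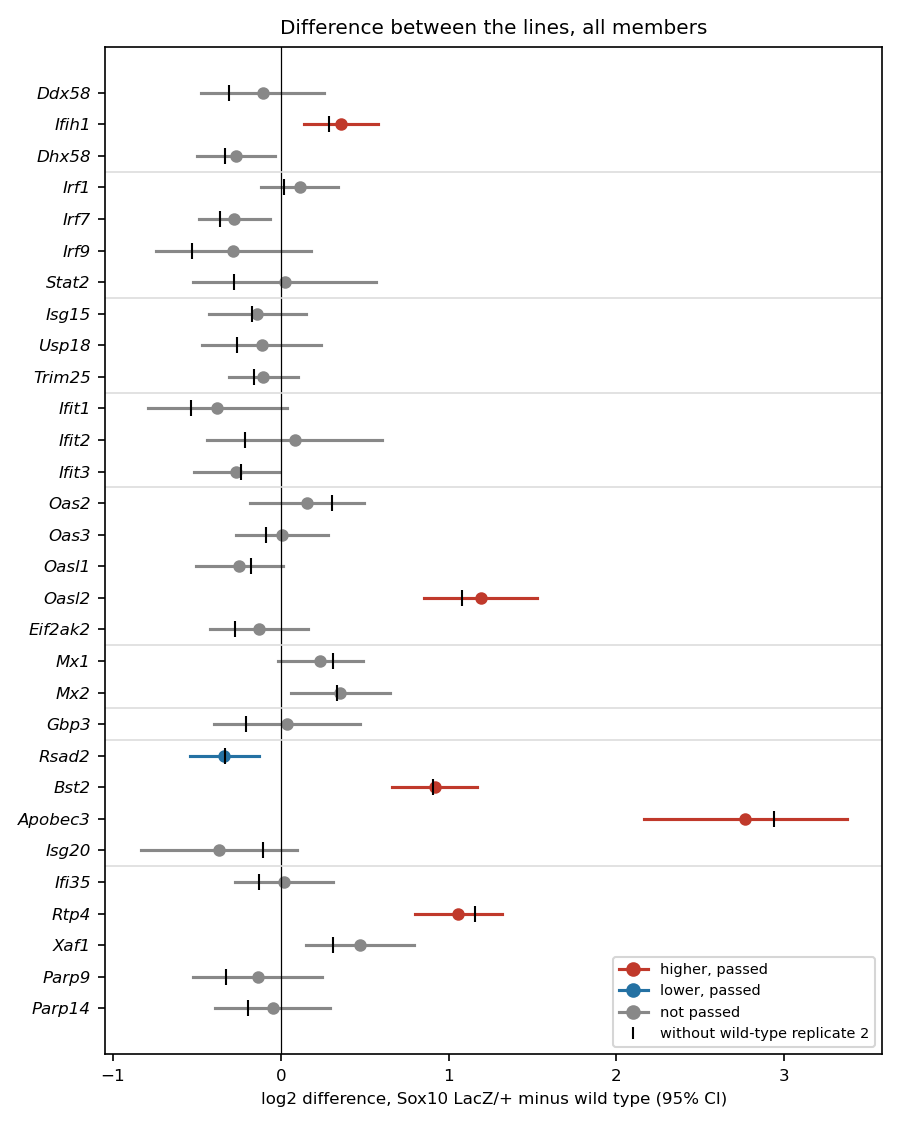
Log2 difference between the Sox10LacZ/+ and wild-type lines for the 30 measured genes, grouped by role from top to bottom, with dots for the estimate from 3 arrays per line, bars for its 95% confidence interval and black ticks for the estimate without wild-type replicate 2. Apobec3, Oasl2, Rtp4 and Bst2 lie far to the right of 0, and many ticks of the other genes lie to the left of their dots.

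Among the RNA sensors, Ddx58 (RIG-I) and Ifih1 (MDA5) detect viral RNA in the cytoplasm, and Dhx58 (LGP2) tunes both. Ifih1 had signals of 5.39, 5.56 and 5.61 in the Sox10LacZ/+ line, against 5.20, 5.02 and 5.26 in wild type. Every Sox10LacZ/+ array was above every wild-type array, and Ifih1 was dim in wild type. The difference of 0.36 (SE 0.10, limma adjusted p 0.0465) lost its call when any of the 6 arrays was left out, with adjusted p from 0.0574 to 0.174. Dhx58 had signals of 5.71, 5.59 and 5.54 in the Sox10LacZ/+ line, against 5.83, 5.74 and 6.06 in wild type, with no overlap and a difference of −0.27 (SE 0.10, limma adjusted p 0.144). Ddx58 had signals of 8.41, 8.46 and 8.45 in the Sox10LacZ/+ line, against 8.76, 8.14 and 8.74 in wild type. The Sox10LacZ/+ arrays lay close together and between the low wild-type replicate 2 and the other wild-type arrays, and the difference of −0.11 (SE 0.16) did not pass.

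None of the 4 transcription factors in the list passed limma's test, which 13.4% of all genes did. An unadjusted p below 0.05 was found for 1 of them (Irf7), against 24.9% of all genes. Irf9 and Stat2, components of ISGF3, had the widest spread in wild type. Stat2 had signals of 8.17, 8.24 and 8.10 in the Sox10LacZ/+ line, against 8.62, 7.55 and 8.28 in wild type. Irf9 had signals of 7.999, 8.07 and 8.14 in the Sox10LacZ/+ line, against 8.74, 7.85 and 8.46 in wild type. In both genes wild-type replicate 2 was below all 3 Sox10LacZ/+ arrays and the other wild-type arrays were above them. The differences over all arrays were 0.02 for Stat2 (SE 0.24, limma adjusted p 0.968) and −0.28 for Irf9 (SE 0.20, limma adjusted p 0.455). Irf7, which amplifies interferon production and is itself induced by ISGF3, had signals of 6.27, 6.21 and 6.16 in the Sox10LacZ/+ line, against 6.59, 6.32 and 6.55 in wild type. Its arrays did not overlap, and its difference of −0.28 (SE 0.09) had a limma adjusted p of 0.0984. Irf1, which responds strongly to interferon gamma, differed by 0.11 (SE 0.10, limma adjusted p 0.554).

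The ISG15 pathway and the IFIT family, both classic products of interferon signalling, held no gene that passed limma's test, and 1 of the 6 (Ifit3) had an unadjusted p below 0.05, against 24.9% of all genes. Isg15, a ubiquitin-like protein attached to other proteins during infection, had signals of 5.27, 5.61 and 5.15 in the Sox10LacZ/+ line, against 5.43, 5.41 and 5.60 in wild type, and the lines overlapped. Usp18, which removes Isg15 from its targets and restrains the receptor, differed by −0.11 (SE 0.15). Trim25, a ubiquitin ligase that acts on the Ddx58 pathway, differed by −0.10 (SE 0.09). The IFIT proteins bind viral RNA and block its translation. Ifit1 had signals of 5.98, 5.84 and 5.95 in the Sox10LacZ/+ line, against 6.17, 5.99 and 6.75 in wild type. Its wild-type arrays all lay above the Sox10LacZ/+ arrays but spread over a wide range, and the difference was −0.38 (SE 0.18, limma adjusted p 0.247). Ifit2 had signals of 8.11, 8.15 and 8.20 in the Sox10LacZ/+ line, against 8.24, 7.48 and 8.48 in wild type, and its difference was 0.08 (SE 0.23). Ifit3 differed by −0.27 (SE 0.11, limma adjusted p 0.178).

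In the family of oligoadenylate synthetases, which make the signal that activates the antiviral nuclease RNase L, Oasl2 passed, and the other 3 measured members of the list (Oas2, Oas3 and Oasl1) did not. Oas1b, Oas1c and Oas1g, measured outside the list, did not pass either, and Oas1c and Oas1g were dim in both lines. Oasl2, a synthetase-like protein with ubiquitin-like domains, had signals of 6.57, 6.24 and 6.09 in the Sox10LacZ/+ line, against 5.24, 4.89 and 5.19 in wild type. The lowest Sox10LacZ/+ array was well above the highest wild-type array, and the wild-type mean was dim. The means were 6.30 ± 0.25 and 5.11 ± 0.19 in the Sox10LacZ/+ and wild-type lines, a difference of 1.19 (SE 0.14, limma adjusted p 0.00109) or 2.28-fold. Oasl1, the neighbouring measured gene on chromosome 5 and an inhibitor of Irf7 translation in mouse, differed by −0.25 (SE 0.11, limma adjusted p 0.227). Oas3 differed by 0.01 (SE 0.12), and Oas2 was dim in both lines with a difference of 0.16 (SE 0.15). Eif2ak2, the kinase PKR that halts translation on sensing double-stranded RNA, had signals of 7.84, 7.85 and 7.88 in the Sox10LacZ/+ line, against 8.05, 7.70 and 8.21 in wild type, a difference of −0.13 (SE 0.13).

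The 3 measured GTPases of the list did not pass limma's test, and 1 (Mx2) had an unadjusted p below 0.05, against 24.9% of all genes. Mx1 and Mx2, dynamin-like proteins that trap viral nucleocapsids, were dim in both lines. Their differences were 0.24 (SE 0.11, limma adjusted p 0.233) and 0.35 (SE 0.13, limma adjusted p 0.124). Gbp3, a guanylate-binding protein, had signals of 5.30, 5.37 and 5.44 in the Sox10LacZ/+ line, against 5.61, 4.84 and 5.54 in wild type, a difference of 0.04 (SE 0.19). As with Stat2, its Sox10LacZ/+ arrays lay between wild-type replicate 2 and the other wild-type arrays.

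The direct antiviral effectors held the largest difference of the list. Apobec3, a cytidine deaminase that mutates and blocks retroviral genomes, had signals of 7.20, 7.52 and 6.54 in the Sox10LacZ/+ line, against 3.94, 4.66 and 4.35 in wild type. It was dim in wild type and well above that level on every Sox10LacZ/+ array, although the Sox10LacZ/+ arrays also spread by nearly 1 log2 unit. The means were 7.09 ± 0.50 and 4.32 ± 0.36 in the Sox10LacZ/+ and wild-type lines, a difference of 2.77 (SE 0.26, limma adjusted p 0.000268). Bst2 (tetherin), which holds budding virus at the cell surface, had signals of 8.70, 8.71 and 8.92 in the Sox10LacZ/+ line, against 8.05, 7.83 and 7.70 in wild type. Its lines were well separated, with a difference of 0.92 (SE 0.11, limma adjusted p 0.000998) or 1.89-fold. Rsad2 (viperin), which makes a chain-terminating nucleotide, had signals of 5.37, 5.61 and 5.63 in the Sox10LacZ/+ line, against 5.89, 5.88 and 5.85 in wild type. Its wild-type arrays agreed closely and lay above all Sox10LacZ/+ arrays. The difference of −0.34 (SE 0.09, limma adjusted p 0.0426) lost its call when any of the 6 arrays was left out, with adjusted p from 0.0548 to 0.137. Isg20, an RNA exonuclease, had signals of 6.55, 6.69 and 6.62 in the Sox10LacZ/+ line, against 6.69, 7.52 and 6.77 in wild type. Here wild-type replicate 2 was the high array, and the difference of −0.37 (SE 0.20, limma adjusted p 0.315) did not pass.

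Of the 5 remaining induced genes, Rtp4 passed. Rtp4, a receptor transporter protein, had signals of 6.39, 6.42 and 6.39 in the Sox10LacZ/+ line, against 5.39, 5.54 and 5.10 in wild type. The Sox10LacZ/+ arrays were nearly the same and all above wild type, with a difference of 1.06 (SE 0.11, limma adjusted p 0.000487) or 2.08-fold. Xaf1, a partner of the apoptosis inhibitor XIAP, had signals of 7.08, 7.01 and 6.84 in the Sox10LacZ/+ line, against 6.67, 6.19 and 6.66 in wild type. Its lines did not overlap, and its difference of 0.47 (SE 0.14, limma adjusted p 0.0669) passed only after median centring or quantile normalization of the arrays. Ifi35 differed by 0.02 (SE 0.13), and the ADP-ribosyltransferases Parp9 and Parp14 by −0.14 (SE 0.17) and −0.05 (SE 0.15).

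**Figure D2:**
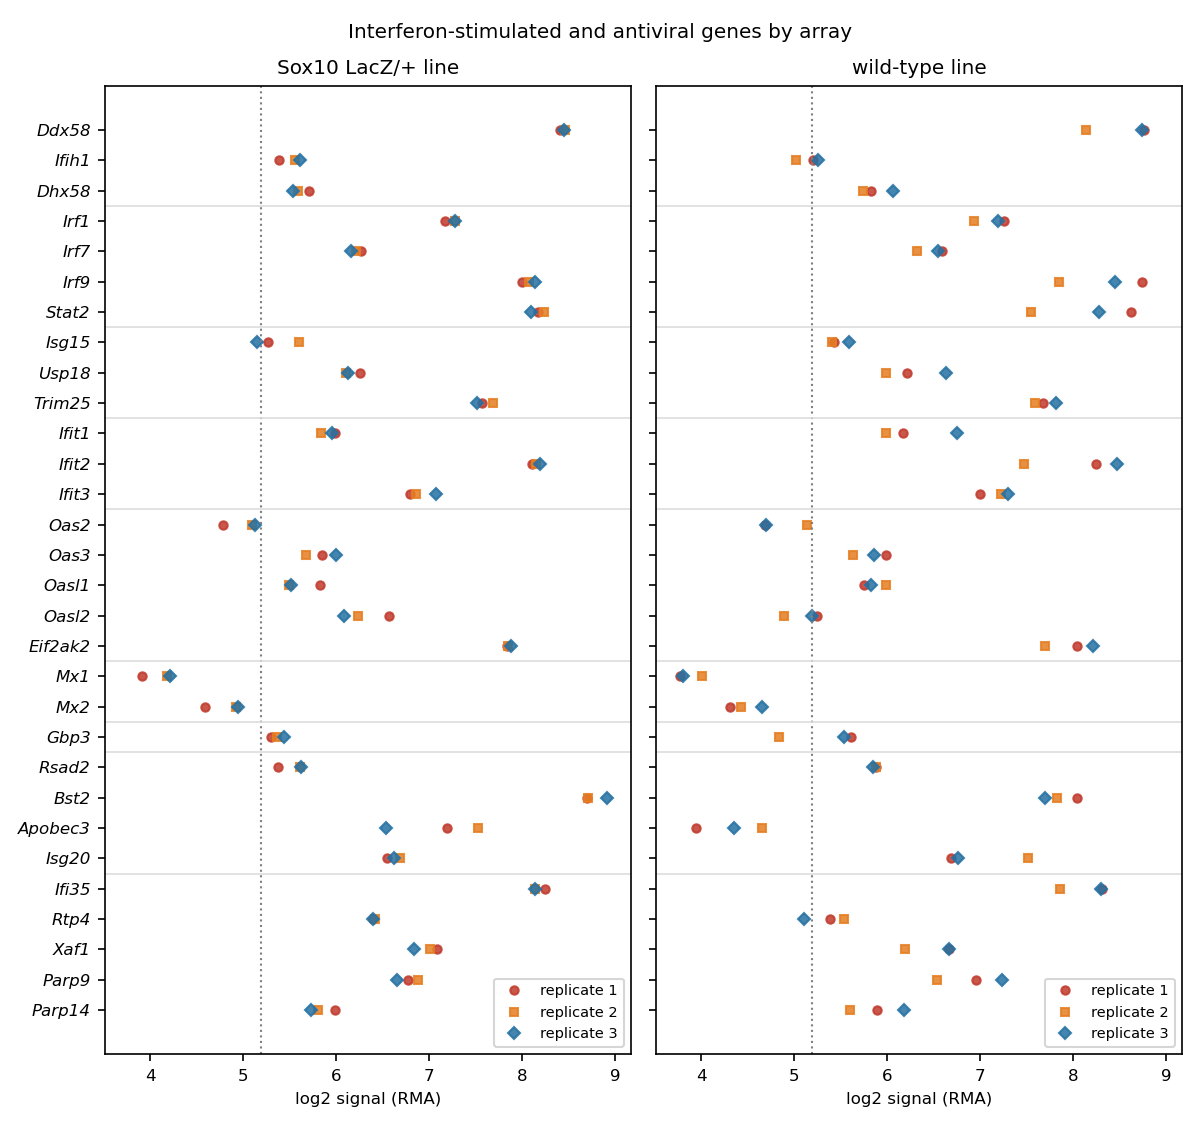
Log2 RMA signal of the 30 measured genes on each of the 6 arrays, with the Sox10LacZ/+ line in the left panel and wild type in the right, a marker for each replicate and a dotted line at 5.20, below which a gene is called dim. The Sox10LacZ/+ replicates mostly sit close together, while in wild type the square of replicate 2 lies left of the other markers in 20 of 30 genes.

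Wild-type replicate 2 had low signals in much of this list. Stat2, Ifit2, Irf9, Gbp3 and Ddx58 were each at least 1.5-fold lower on that array than the average of wild-type replicates 1 and 3, and Isg20 was at least 1.5-fold higher. The deviations were −0.90 for Stat2, −0.88 for Ifit2, −0.75 for Irf9, −0.73 for Gbp3, −0.61 for Ddx58 and 0.79 for Isg20. Over the 30 genes its median deviation was −0.27, against 0.001 over all genes, and 22 genes were below and 8 above that average. It was the lowest wild-type array in 20 of 30 genes (66.7%), against 36.3% of all genes. A decrease of at least 1.5-fold was seen in 5 of 30 (16.7%), against 2.56% of all genes. The Sox10LacZ/+ arrays had median deviations of −0.03, 0.01 and 0.003 in these genes, and wild-type replicates 1 and 3 had 0.07 and 0.18.

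**Figure D3:**
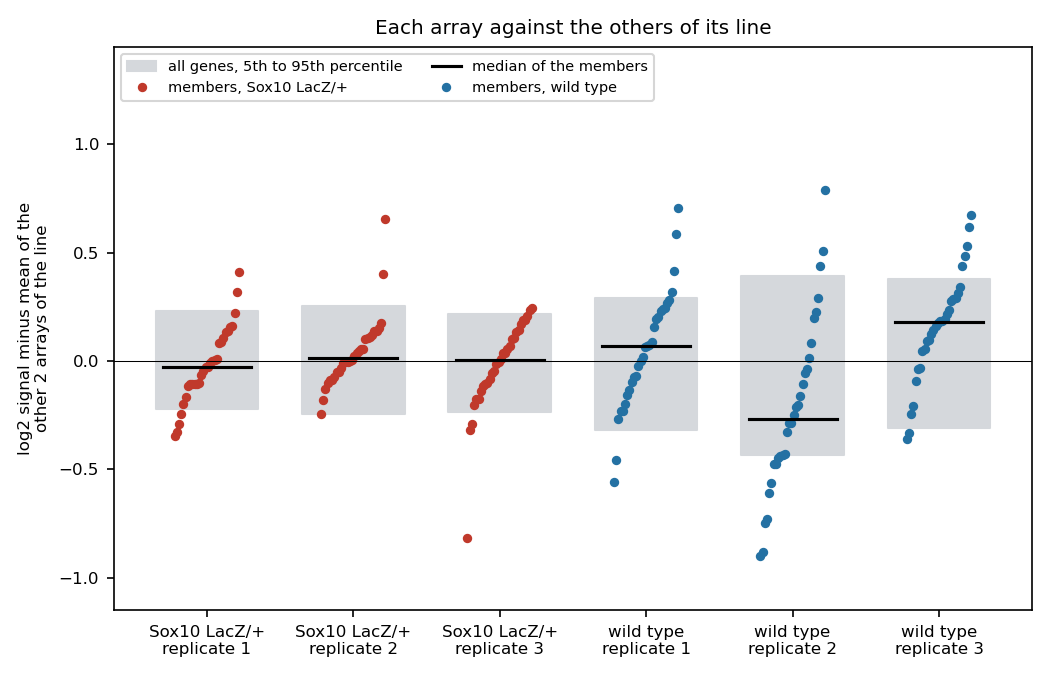
Log2 signal of each array minus the mean of the other 2 arrays of its line, with a dot for each of the 30 genes, a black line at their median and a grey box from the 5th to the 95th percentile of all genes. Wild-type replicate 2 has a median of −0.27 and 5 dots at least 1.5-fold below 0.

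The same array was low in induced genes outside the list. Among 63 other interferon-induced genes, 44 (69.8%) were below and 19 above the average of wild-type replicates 1 and 3, with a median of −0.16, while 49.7% of all genes were below it. A decrease of at least 1.5-fold was seen in 11 of the 63 (17.5%), against 2.56% of all genes, and an increase of that size in 0, against 1.71%. The largest decreases were in Samd9l (−1.18), Ifi27 (−1.17), Trim34a (−1.03), the immunity-related GTPase Irgm1 (−0.94) and Parp12 (−0.92). Samd9l had signals of 6.29, 5.24 and 6.55 in wild type, so replicate 2 was more than 1 log2 unit below the others. Over the 10 melanocyte markers, wild-type replicate 2 had the highest array mean of the line, 11.75. Fibroblast markers on that array averaged 6.45, the lowest of the line, and leukocyte markers 5.45, the highest; the part of these shifts in the low signals was not tested.

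The place of wild-type replicate 2 set the sign of several differences. In 8 of the 30 genes (Ddx58, Irf9, Stat2, Ifit2, Eif2ak2, Gbp3, Ifi35 and Parp9) it lay below all Sox10LacZ/+ arrays while wild-type replicates 1 and 3 lay above them all. That pattern held for 26.7% of the list, against 3.66% of all genes. With this array left out, 7 of 30 genes passed, against 19.0% of all genes, and 4 were higher (10.4% of all genes) and 3 lower (8.63% of all genes) in the Sox10LacZ/+ line. Apobec3, Oasl2, Rtp4 and Bst2 kept their calls, with differences of 2.94, 1.08, 1.16 and 0.91. The 3 lower genes were Irf9 at −0.53 (SE 0.10, limma adjusted p 0.0107), Irf7 at −0.36 (SE 0.07, limma adjusted p 0.0127) and Ddx58 at −0.31 (SE 0.07, limma adjusted p 0.0175), none of which passed over all 6 arrays. Stat2, Ifit2, Oas3, Gbp3 and Ifi35, with positive differences over all arrays, then stood at −0.28, −0.21, −0.09, −0.21 and −0.13, and did not pass. The median difference of the list was then −0.18, with 20 negative and 10 positive differences, against a median of 0.002 over all genes. Ifih1 and Rsad2 no longer passed, with adjusted p of 0.0654 and 0.0548, and Ifit1 stood at −0.54 (limma adjusted p 0.0621). The spread within the lines differed too: the median SD of the 30 genes was 0.10 in the Sox10LacZ/+ line and 0.24 in wild type, against 0.08 and 0.12 over all genes.

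Upstream of the listed genes, the interferon genes themselves gave small differences between the lines, but 9 of 19 measured ligands were dim in both lines. A small difference between dim signals does not show that expression was the same. Of the 19 ligands, 1 passed (5.26%), against 13.4% of all genes. It was the alpha interferon Ifna7 at 0.31 (SE 0.08, limma adjusted p 0.0461). Its call was lost on leaving out any single array except wild-type replicate 3 (limma adjusted p from 0.0642 to 0.171). Ifnb1, the interferon beta that most cells make first, was dim with signals of 3.63, 3.53 and 3.52 in the Sox10LacZ/+ line, against 3.55, 3.72 and 3.79 in wild type, a difference of −0.13 (SE 0.09). Ifna1 and Ifna4, the brightest probe sets of the ligands, differed by −0.02 (SE 0.09) and −0.05 (SE 0.10). The genes of this family are very similar in sequence, so their probe sets may share signal. The median over the 19 ligands was −0.02.

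Of the interferon receptor chains, 3 were higher in the Sox10LacZ/+ line. Of 18 receptors, kinases and feedback genes, 3 were higher and 2 lower, against 7.46% and 5.92% of all genes. Ifnar1 had signals of 10.76, 10.71 and 10.75 in the Sox10LacZ/+ line, against 10.30, 10.15 and 10.21 in wild type, a difference of 0.52 (SE 0.07, limma adjusted p 0.00241). Ifngr2, a chain of the interferon gamma receptor, differed by 0.51 (SE 0.07, limma adjusted p 0.00288) and Il10rb, a chain shared by the interferon lambda and interleukin 10 receptors, by 0.67 (SE 0.12, limma adjusted p 0.00686, but 0.0734 without moderation of the variance). Ifnar2, the partner of Ifnar1, differed by 0.16 (SE 0.12) and did not pass, nor did the receptor chains Ifngr1 at 0.07 and Ifnlr1 at −0.04, and the lines overlapped in all 3. Ifnar2, Il10rb, Ifnar1 and Ifngr2 lie in that order on chromosome 16, followed by Tmem50b, which was also higher (1.001, limma adjusted p 0.000753). A930006K02Rik, measured between Il10rb and Ifnar1, was lower, at −0.59 (limma adjusted p 0.0281), but dim in both lines. On chromosome 16 as a whole, 14.1% of 703 measured genes passed. Stat3, which cytokines of the interleukin 6 family activate, was lower by −0.65 (SE 0.08, limma adjusted p 0.000889), as was the phosphatase gene Ptpn6 by −0.83 (SE 0.11, limma adjusted p 0.00201).

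Among 23 genes of nucleic acid sensing and interferon induction, 4 were higher in the Sox10LacZ/+ line and 0 lower, with 19 not passing limma's test; an unadjusted p below 0.05 was seen for 5 of the 23. These shares stand against 7.46% of all genes higher, 5.92% lower and 24.9% with an unadjusted p below 0.05. Cgas, the DNA sensor that makes cyclic GMP-AMP, had signals of 7.63, 7.52 and 7.48 in the Sox10LacZ/+ line, against 6.19, 6.68 and 6.33 in wild type. The lines were well separated, with a difference of 1.14 (SE 0.13, limma adjusted p 0.000693) or 2.205-fold. Tlr3, an endosomal receptor for double-stranded RNA, differed by 0.76 (SE 0.17, limma adjusted p 0.0213), with its call lost without wild-type replicate 1 or any of the 3 Sox10LacZ/+ arrays (adjusted p up to 0.0835) and without moderation of the variance (0.146). Ifi204, a DNA-binding protein of the p200 family, differed by 0.82 (SE 0.17, limma adjusted p 0.0159) but was dim, and its call was lost without wild-type replicate 1 or 3 or Sox10LacZ/+ replicate 3 (adjusted p up to 0.0682), and without moderation of the variance (0.129). Rnaseh2b, a subunit of RNase H2, differed by 0.29 (SE 0.08, limma adjusted p 0.0473), a call lost on leaving out any single array except wild-type replicate 2 (adjusted p from 0.0537 to 0.174).

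Of 63 other interferon-induced genes, 7 were higher and 7 lower in the Sox10LacZ/+ line, against 7.46% and 5.92% of all genes, and the median was −0.04. The chemokine gene Cxcl10 had signals of 5.62, 6.10 and 5.78 in the Sox10LacZ/+ line, against 8.40, 8.12 and 8.73 in wild type. It was far lower on every Sox10LacZ/+ array, with a difference of −2.58 (SE 0.17, limma adjusted p 3.99e-05), opposite in sign to Apobec3. Cmpk2, a nucleotide kinase encoded next to Rsad2 on chromosome 12, had signals of 5.88, 5.93 and 6.02 in the Sox10LacZ/+ line, against 7.48, 6.57 and 7.29 in wild type, a difference of −1.17 (SE 0.21, limma adjusted p 0.0084, but 0.105 without moderation of the variance). Both neighbours were thus lower, Cmpk2 by a larger amount than Rsad2. Herc6, the main ligase that attaches Isg15 in mouse, had signals of 8.73, 8.86 and 8.83 in the Sox10LacZ/+ line, against 7.10, 7.497 and 7.14 in wild type, a difference of 1.56 (SE 0.12, limma adjusted p 6.66e-05). Ifitm3, which blocks viral entry from endosomes, was higher by 1.49 (SE 0.19, limma adjusted p 0.0015, but 0.0524 without moderation of the variance). Its relative Ifitm2 was higher by 1.08 (SE 0.10, limma adjusted p 0.000278) but dim in wild type, so the size of its difference is not exact. The neighbouring relatives Ifitm1 (−0.08), Ifitm5 (0.09) and Ifitm6 (0.03) did not pass, and Ifitm1 and Ifitm6 were dim in both lines. Cd274, the immune checkpoint ligand PD-L1, was higher by 1.10 (SE 0.10, limma adjusted p 0.000231).

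Counted together, 24 of the 123 measured genes of these related lists passed (19.5%), 15 higher and 9 lower, against the 13.4% of all genes. The total was 15 when Sox10LacZ/+ replicate 3 was left out and 26 when wild-type replicate 2 was left out. Without wild-type replicate 2 the share of all genes that passed also rose, to 19.0%. The share of all genes without Sox10LacZ/+ replicate 3 is not given here.

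**Figure D4:**
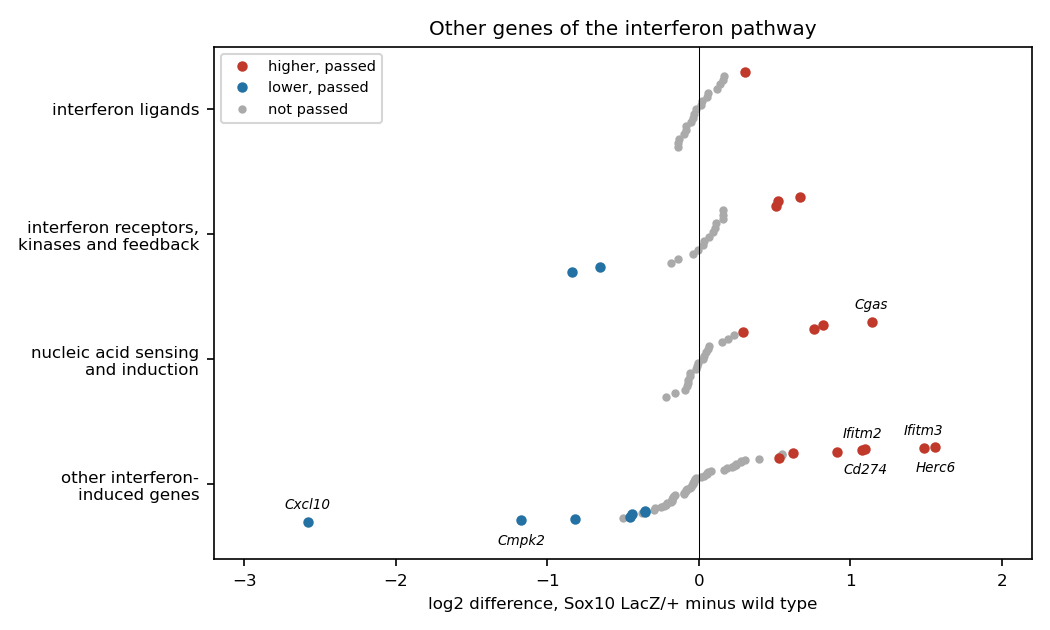
Log2 difference between the Sox10LacZ/+ and wild-type lines for the 123 measured genes of 4 related lists, with a dot for each gene in order of size within its list, red for genes that passed and were higher, blue for genes that passed and were lower and grey for the others. Names are given past 2-fold, where Cxcl10 and Cmpk2 lie to the left and Cgas, Ifitm2, Cd274, Ifitm3 and Herc6 to the right.

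The listed genes that passed lay on different chromosomes, though some related genes that passed shared a chromosome with them. Measured neighbours of some listed genes and of the related gene Herc6 give the local setting. Apobec3 and Sox10 are both on chromosome 15 with 22 measured genes between them, of which 1 was higher and 2 lower, with a median difference of −0.02. Beside Apobec3, Cbx7 differed by −0.10 and did not pass, and the next genes Pdgfb (0.84) and Rpl3 (0.49) were higher. Rtp4 lies on chromosome 16 between Masp1, which was higher by 3.77 (limma adjusted p 1.53e-07), and Sst, which did not pass at −0.21. The measured genes next to Bst2 on chromosome 8, Plvap at 0.22 and Mvb12a at 0.32, did not pass. Herc6 lies on chromosome 6, where 247 of 1201 genes were higher and 35 lower. Of the chromosome 6 genes 23.5% thus passed, against 13.4% of all genes (7.46% higher and 5.92% lower). The neighbours of Herc6, Ppm1k (0.72) and Pyurf (0.59), were higher.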

How the data were processed

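RNA from 6 samples was labelled with biotin and hybridised to 1-colour Affymetrix arrays. The deposited values are log2 signals that the authors made with RMA, per the submitters' processing notes, which also name Partek. Their versions and settings, and any test of the authors, were not given in the sources used. Among 41345 probe sets, 23521 carried 1 gene symbol, 1814 carried more and 16010 had no gene listed. Symbols were matched to RefSeq on GRCm38.p6, and 1082 genes with several probe sets were represented by the brightest. No pair of arrays was identical (0 pairs), and no further scaling or filter was applied. An array gives no counts, so the number of arrays limits the precision.

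The lines were compared over all 22180 genes in R 4.3.3 by limma 3.58.1 (functions lmFit and eBayes, 2-sided, 4 residual and 7.87 total degrees of freedom), without a replicate block. The script was tested on simulated data. The listed genes, related lists and tests were chosen with earlier results of these data known. Named genes were all members, up to 6 per related list by size past the threshold, the 2 brightest where fewer than 2 passed, and Ifnb1, Ifnar1, Ifnar2, Sox10, Cdkn2a and the marker genes that passed. Trim34a, Samd9l, Ifi27, Irgm1, Parp12 Ifngr1, Ifnlr1, Oas1b, Oas1c, Oas1g and the neighbouring genes were chosen after their values were seen. Alternatives were median centring, quantile normalization, leaving out dim genes, averaging probe sets, other variance models, array weights, stricter thresholds, the replicate block and each array left out.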

Additional observations from a re-analysis of the deposited data

How the results depend on the processing

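Apobec3, Oasl2, Rtp4 and Bst2 passed at an adjusted p below 0.05 under every alternative run (highest adjusted p 0.0287, 0.0410, 0.0249 and 0.0315), although Bst2 is under 2-fold. Adding a 2-fold threshold left 3 genes passing, all 3 of them higher. The single lower gene, Rsad2, gave a count of 0 with median centring, quantile normalization, no moderation of the variance, the replicate block, an adjusted p below 0.01 or a 2-fold threshold, and array weights gave 2. With each array left out the lower count ranged from 0 to 3, the higher count was 4, the total ranged from 4 to 7 and the median difference from −0.18 to 0.08. The total was 7 without wild-type replicate 2, where 19.0% of all genes passed, and 4 without any other array. The share of all genes is not given here for the other arrays left out or for the replicate block, so those counts cannot be set against it. Without moderation of the variance, Cmpk2, Il10rb and Ifitm3 of the related lists had adjusted p of 0.105, 0.0734 and 0.0524. Xaf1 passed with median centring and quantile normalization. With array weights, which gave wild-type replicate 2 a weight of 0.329, 5 small differences changed sign: Stat2 (−0.20), Ifit2 (−0.044), Oas3 (−0.041), Gbp3 (−0.10) and Ifi35 (−0.064). With 1 array left out, differences ranged from −0.28 to 0.26 for Stat2, −0.21 to 0.29 for Ifit2, −0.086 to 0.091 for Oas3, −0.21 to 0.18 for Gbp3, −0.13 to 0.10 for Ifi35, −0.19 to 0.10 for Parp14, −0.33 to 0.024 for Parp9 and −0.26 to 0.063 for Usp18. The related lists then held 15 to 26 genes that passed. With the replicate block, 4 listed and 21 related genes passed; nothing in the labels ties arrays of the same number together, and their deviations had r of 0.007, 0.016 and −0.004, so the numbers were not taken as pairs. Genes above the average of wild-type replicates 1 and 3 in wild-type replicate 2 numbered 8, and 9 after quantile normalization. With a further A the promoter core was found in 14 matched genes in place of 16. The cause of these shifts was not tested.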

Other observations

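Beyond the named genes, the other interferon-induced genes that passed were chosen for mention after their values were seen. Ly6e, a membrane protein that affects viral entry, was higher in the Sox10LacZ/+ line by 0.91 (SE 0.11, limma adjusted p 0.00127), the nuclear body protein gene Sp100 by 0.62 (SE 0.10, limma adjusted p 0.00614) and the guanylate-binding protein gene Gbp7 by 0.53 (SE 0.10, limma adjusted p 0.0108). Lgals3bp, which encodes a secreted galectin-binding protein, was lower with a difference of −0.82 (SE 0.10, limma adjusted p 0.00117). Lgals9 (−0.45), the peptide transporter gene Tap1 (−0.44), Tor3a (−0.36) and the RNA helicase gene Mov10 (−0.36) were also lower. Ly6e, Sp100 and Lgals3bp kept their calls when any single array was left out, but Sp100 had an adjusted p of 0.0631 without moderation of the variance. Gbp7 lost its call without Sox10LacZ/+ replicate 3 (adjusted p 0.0533), and Lgals9, Tap1, Tor3a and Mov10 each lost theirs on leaving out at least 3 of the 6 arrays singly, with adjusted p up to 0.131. Cxcl11, the chemokine gene next to Cxcl10 on chromosome 5, had signals of 4.81, 4.94 and 5.01 in the Sox10LacZ/+ line, against 5.32, 5.50 and 5.54 in wild type. It was lower by −0.53 (SE 0.09, limma adjusted p 0.00644) and dim in the Sox10LacZ/+ line. On the other side of Cxcl10, Art3 was also lower, by −1.80 (SE 0.25, limma adjusted p 0.00228). Beyond Art3, the chemokine gene Cxcl9 was dim in both lines and did not pass, at 0.06 (SE 0.13). Beyond Cxcl11, Nup54 did not pass either, at 0.12 (SE 0.08).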
